A study of Mus musculus with 6 samples.

Results

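Forkhead genes encode transcription factors that share a winged-helix DNA-binding domain and are named Fox with a letter for the subclass. The deposited table listed 34745 genes, and 42 of them carried a symbol of the form Foxa1 to Foxs1. Foxd1 and Foxm1 were left out, since one marks the stromal lineage of the kidney and the other belongs to cell division. The rule reads the symbol alone, and was set with earlier results of these data known. The RNA came from wild-type (WT) primary mouse renal fibroblasts, the matrix-making cells of the kidney, isolated by digesting the tissue. After 6 h of attachment they were cultured alone, without treatment (3 libraries), or for 24 h beneath an insert with 0.4 μm pores that held induced Th17 cells, the helper T cells that make interleukin-17 (3 libraries). How long the lone fibroblasts were kept was not stated separately. Neither was it stated if the 3 libraries per group derive from different animals, cultures or wells. Errors and p-values therefore measure how far these libraries spread, which may be technical.

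Forkhead factors fall into groups with different roles. FoxF, FoxC, FoxL1 and FoxS1 factors act in mesenchyme and vessel walls, and Foxf1, Foxf2 and Foxl1 are known to be induced in mesenchyme by Hedgehog signalling. Foxq1, which lies in a gene cluster with Foxf2 and Foxc1, was grouped with them. FoxO factors drive genes of metabolism, stress resistance and cell cycle arrest, and are pushed out of the nucleus when AKT or SGK kinases phosphorylate them after insulin or growth factor signals. FoxP factors are repressors that pair through a leucine zipper, FoxK factors bind a deubiquitinase complex, and several other subclasses are confined to single lineages such as endoderm, cilia-bearing cells or the intercalated cells of the collecting duct.

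The total count per library lay between 12050529 and 13209581, and 3 counts, the floor used here, corresponded to between 0.223 and 0.2536 CPM (counts scaled to a common library total with TMM factors). The study's methods do not state whether PCR copies of a fragment were marked, so floors cover counting error only. Fibroblast markers were all present, with a summed level of 34080 to 35970 CPM in lone and 14240 to 15940 CPM in cocultured libraries. Of the 10, 8 were lower and 1 (Dcn) was higher by edgeR (adjusted p below 0.05). Over all 13088 genes tested, 20.0% were lower and 17.1% higher. T cell markers summed to between 6.907 and 9.637 CPM in lone and between 4.791 and 5.576 CPM in cocultured libraries, with 4 of 12 (Cd3d, Cd2, Il17a and Il17f) at 0 counts throughout. The corresponding ranges were 57.49 to 60.61 and 19.92 to 21.15 CPM for 10 macrophage markers, 6.793 to 8.031 and 2.054 to 3.063 CPM for 7 endothelial markers (Emcn and Erg at 0), and 3.889 to 5.687 and 1.492 to 1.71 CPM for 10 tubular markers (Slc34a1, Umod and Aqp2 at 0). The part these cells have in the forkhead values was not tested. In these bulk libraries, fewer cells of a type and less RNA per cell cannot be told apart.

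Upstream sequences are shown first for the 4 members with the largest higher calls among those that RefSeq's promoter table holds. Of the 42 members, 27 had an entry. The stretches end at the base before the gene as the deposited table places it, except for Foxc1, where GENCODE starts the gene further upstream and the stretch ends before that start. They are written 5′ to 3′ on the strand of the gene, and come from GRCm38.p6 (chr13:31625566-31625815, plus strand, for Foxf2; chr13:31806396-31806632, plus strand, for Foxc1; chr3:52268087-52268335, plus strand, for Foxo1; chr10:42276756-42276945, minus strand, for Foxo3). Capitals mark GC boxes (GGGCGG or CCGCCC) and CCAAT boxes (CCAAT or ATTGG).
Foxf2: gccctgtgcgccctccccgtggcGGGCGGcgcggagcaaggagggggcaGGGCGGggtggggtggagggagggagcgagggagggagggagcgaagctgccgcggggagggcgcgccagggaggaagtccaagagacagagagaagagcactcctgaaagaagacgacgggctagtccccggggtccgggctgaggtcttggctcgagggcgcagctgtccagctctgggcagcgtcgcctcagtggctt
Foxc1: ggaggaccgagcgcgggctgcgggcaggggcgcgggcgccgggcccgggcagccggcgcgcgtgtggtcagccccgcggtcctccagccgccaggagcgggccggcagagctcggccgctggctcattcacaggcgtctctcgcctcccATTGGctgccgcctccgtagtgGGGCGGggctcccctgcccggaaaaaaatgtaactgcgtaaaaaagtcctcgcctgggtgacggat
Foxo1: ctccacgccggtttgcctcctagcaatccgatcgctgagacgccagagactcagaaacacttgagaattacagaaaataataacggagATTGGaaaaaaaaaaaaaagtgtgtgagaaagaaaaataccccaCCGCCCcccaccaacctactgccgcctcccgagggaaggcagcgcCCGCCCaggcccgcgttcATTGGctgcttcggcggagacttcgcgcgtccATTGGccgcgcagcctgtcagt
Foxo3: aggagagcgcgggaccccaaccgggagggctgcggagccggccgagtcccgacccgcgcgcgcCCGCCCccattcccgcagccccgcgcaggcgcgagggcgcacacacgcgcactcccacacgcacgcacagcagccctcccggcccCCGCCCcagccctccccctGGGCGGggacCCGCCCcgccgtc

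These stretches were rich in G and C, at 71.6% for Foxf2, 72.6% for Foxc1, 55.8% for Foxo1 and 81.6% for Foxo3. Foxf2 held 2 GC boxes and no CCAAT box, whereas Foxo1 held 3 CCAAT boxes and 2 GC boxes. Over the 27 members the median GC content of the 250 bases upstream was 64.4%, compared with 52.8% over 27025 genes, each gene taken by its window of highest GC content. A GC box occurred in 20 of the 27 and in 35.4% of all genes, and a CCAAT box in 13 of the 27 and in 37.5% of all genes. Over the 190 bases shown for Foxo3, which held 4 GC boxes, a GC box occurred in 22.8% of all windows cut to that length. The forkhead letters TGTTTAC or GTAAACA occurred in 1 of the 27 (Foxa1) and in 3.54% of all genes. GGAATG or CATTCC, the letters that TEAD factors bind, occurred in 3 (Foxb2, Foxo3 and Foxp1) and in 14.4% of all genes. The GLI letters TGGGTGGTC or GACCACCCA occurred in none of the 27 and in 0.255% of all genes. Both strands were searched, none of these motifs contains another, and a match is a description of letters, not a binding site.

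The comparison of the groups asked which forkhead transcripts changed when Th17 cells were present. Of the 42 members, 31 had a count in some library and 18 passed the filter on low counts. Among these 18, 7 were up-regulated and 1 was lower with Th17 cells (edgeR adjusted p below 0.05), and 10 were not called. That is 38.9% higher and 5.56% lower, where 17.1% of all 13088 genes tested were higher, 20.0% lower and 37.1% called in either direction. With a fold change above 2 as well, 2 members were higher, Foxf2 among them, against 3.87% of all genes, and 0 were lower, against 7.78% of all genes. Limma was counted here on log2(FPKM + 1) only, with FPKM the fragments scaled to gene length and library total. At an unadjusted p below 0.05 by edgeR, DESeq2 or this limma fit, the number lower past a 2-fold change was also 0. Without cocultured replicate 2 it was 1 (Foxn2). The median log2 fold change of the 18 was 0.24, beside 0.004 over all genes tested. The libraries of the groups did not overlap in 8 members that were higher (24.3% of all genes) and in 1 that was lower (26.1% of all genes).

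**Figure D1:**
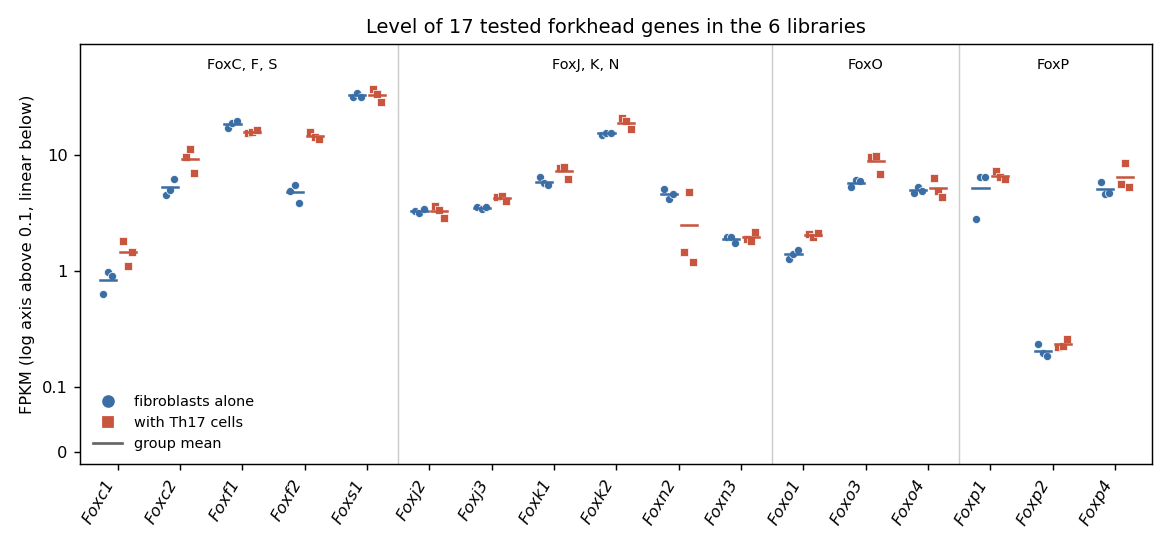
Deposited FPKM (fragments scaled to gene length and library total, log axis above 0.1 and linear below) of 17 tested forkhead genes, grouped by subclass, with a point for each library and a bar at the mean of the 3 libraries of a group. Foxs1, Foxf1 and Foxk2 were the highest in lone fibroblasts, and Foxf2 joined them after coculture.

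Levels of different genes were compared on the deposited FPKM values, which account for gene length. Forkhead transcripts summed to 119.4 ± 4.18 FPKM in lone and 142.9 ± 14.0 FPKM in cocultured fibroblasts (SD, n = 3 each). These FPKM were used as deposited, without the TMM factors applied to CPM. The factors ran from 0.9755 to 0.9816 in lone and from 1.016 to 1.029 in cocultured libraries. Cocultured values are therefore higher against lone ones in FPKM than in CPM. Foxs1, a factor of perivascular cells, was the most abundant member in both groups, at 32.46 ± 1.59 and 32.9 ± 4.12 FPKM. In lone cells it was followed by Foxf1 (18.5 ± 1.25 FPKM) and Foxk2 (15.26 ± 0.323 FPKM), and these 3 genes differed from each other beyond their ranges. The 8 genes from Foxk1 (5.888 FPKM) through Foxo3, Foxc2, Foxp1, Foxp4, Foxo4 and Foxf2 to Foxn2 (4.605 FPKM) each overlapped the next in range. After coculture the order was Foxs1, Foxk2 (18.83 ± 2.08 FPKM), Foxf1 (15.83 ± 0.555 FPKM) and Foxf2 (14.55 ± 1.08 FPKM), the last of which overlapped Foxf1 in range and had moved from rank 10 to rank 4. The FoxC, FoxF, FoxL, FoxQ and FoxS genes together held 51.9% ± 0.582 of the forkhead FPKM in lone and 52.2% ± 1.54 in cocultured cells. Within that share Foxf2 went from 3.98% ± 0.663 to 10.2% ± 0.634, Foxf1 from 15.5% ± 0.687 to 11.2% ± 1.56, and Foxs1 from 27.2% ± 0.918 to 23.0% ± 1.21. A mean of at least 1 FPKM was reached by 15 members in lone and 16 in cocultured cells.

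Foxf2, a mesenchymal regulator of gut, palate and pericytes (ENSMUSG00000038402, chromosome 13, 31625816 to 31631403, 2 exons in its longest transcript), showed the largest change among tested members with counts in both groups. Lone libraries held 153, 168 and 110 of its fragments and cocultured ones 489, 424 and 411. The groups did not overlap. Its level rose from a mean of 11.48 ± 2.01 to 33.64 ± 2.56 CPM (± SD over 3 libraries), a 2.92-fold increase (log2 fold change 1.55 with an SE of 0.137, adjusted p = 2.73e-05 by edgeR). A lincRNA that starts 24 bases away on the opposite strand, 1700018A04Rik, was at 0 counts alone and at 4, 7 and 7 counts after coculture. Another lincRNA nearby on the same strand, Gm11378, was at 0 throughout.

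Its paralogue Foxf1, a factor of lung, gut and vascular mesenchyme (ENSMUSG00000042812, chromosome 8, 121084386 to 121088144, 2 exons), moved the other way by a small margin. Lone fibroblasts had 545, 593 and 566 counts and cocultured fibroblasts 487, 476 and 507. Foxf1 was lower, going from a mean of 45.66 ± 2.96 to 37.39 ± 1.18 CPM (± SD over 3 libraries, log2 fold change −0.29 with an SE of 0.08, adjusted p = 0.02 by edgeR), without overlap between the groups. The call was lost without lone replicate 2 (−0.27, edgeR adjusted p = 0.081), without lone replicate 3 (−0.26, edgeR adjusted p = 0.0884), without cocultured replicate 1 (−0.26, edgeR adjusted p = 0.0629) and with library size as the only scaling (−0.23, edgeR adjusted p = 0.054). The FPKM of Foxf2 was divided by that of Foxf1. This ratio was 0.287, 0.29 and 0.199 in the lone libraries and 1.03, 0.91 and 0.828 in the cocultured ones. A two-sided exact permutation test on the log2 ratio gave p = 0.1, the smallest that 3 against 3 libraries allow. Both genes separated the groups in opposite directions, so the outcome for their ratio was set beforehand and adds no support. In lone fibroblasts Foxf1 was thus the more abundant of the pair in every library, and after coculture the ratio lay near 1. Fendrr, the non-coding RNA that lies 1276 bases from Foxf1 on the opposite strand, had 48, 58 and 43 counts against 38, 38 and 24 (log2 fold change −0.65 with an SE of 0.239, adjusted p = 0.0622 by edgeR), and Mthfsd, 3484 bases away, had 209, 195 and 211 against 201, 243 and 245 (log2 fold change 0.09, edgeR adjusted p = 0.613).

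Foxc2, a factor of lymphatic and paraxial mesenchyme, lies 28.0 kb beyond Foxf1 (ENSMUSG00000046714, chromosome 8, 121116171 to 121118895, a single-exon gene). Counts of 163, 176 and 204 alone compared with 344, 382 and 241 beside Th17 cells. All cocultured libraries were above all lone ones, with the third cocultured library closest to them. Foxc2 rose from a mean of 14.6 ± 2.38 to 24.64 ± 5.89 CPM (± SD over 3 libraries), a 1.69-fold change (log2 fold change 0.76 with an SE of 0.189, adjusted p = 0.0121 by edgeR). It was called under each alternative run, with adjusted p up to 0.0496, just below the limit. The same chromosome 8 cluster ends 9.0 kb further on with Foxl1, a marker of gut mesenchymal niche cells, which had 4, 2 and 0 counts in lone and 10, 9 and 14 counts in cocultured libraries. Foxl1 did not pass the filter on low counts, and in the fit without a filter, where it is among 19278 genes, its log2 fold change was 2.33 (edgeR adjusted p = 0.0298). Gm20388, a gene model that runs over Foxf1, Foxc2 and Foxl1 on the same strand, was listed with 0 counts in every library.

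Foxc1, the paralogue of Foxc2 and a regulator of eye, heart and kidney mesenchyme (ENSMUSG00000050295, chromosome 13, 31806691 to 31810643, a single-exon gene), lies 175.3 kb from Foxf2. It had 33, 50 and 43 counts in lone and 94, 55 and 73 counts in cocultured libraries, with no overlap but a narrow gap between 50 and 55. Foxc1 was 1.66-fold higher, at 5.62 ± 1.34 against 3.382 ± 0.728 CPM (± SD over 3 libraries, log2 fold change 0.74 with an SE of 0.242, adjusted p = 0.0403 by edgeR). This call did not survive leaving out any library but cocultured replicate 2: the edgeR adjusted p was 0.133, 0.0511 and 0.0756 without lone replicates 1, 2 and 3, and 0.137 and 0.0682 without cocultured replicates 1 and 3. DESeq2 gave it an adjusted p of 0.0658 and the replicate block 0.0849. Foxq1, at the other end of the chromosome 13 cluster and 64.8 kb from Foxf2, had 4, 1 and 4 counts in lone and 8, 9 and 5 in cocultured libraries. It was under the filter, and overlaps A530084C06Rik, a gene with 0 counts in the lone and 8, 1 and 2 in the cocultured libraries, so fragments of these genes may not be told apart where the counting ignored strand. Gmds, 8936 bases from Foxc1, was lower, going from a mean of 5.758 ± 0.525 to 3.656 ± 0.409 CPM (± SD over 3 libraries, log2 fold change −0.65 with an SE of 0.175, adjusted p = 0.0168 by edgeR), a call lost without lone replicate 2 (0.0689), lone replicate 3 (0.0517) or cocultured replicate 2 (0.0546) and in DESeq2 (0.0681).

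**Figure D2:**
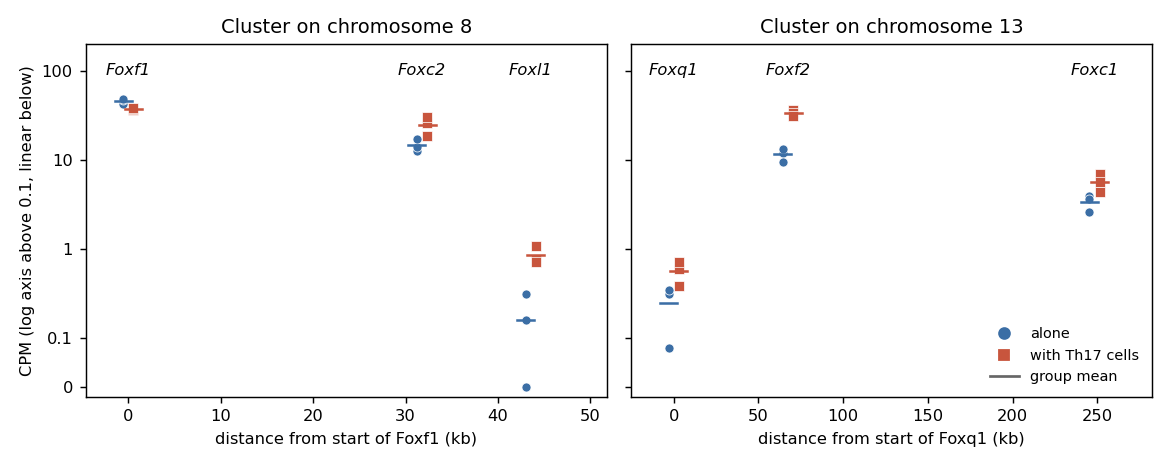
TMM-scaled CPM (log axis above 0.1, linear below) of the forkhead genes in the clusters on chromosomes 8 and 13, placed by distance in kb from the start of the first gene, with a point for each library and a bar at each group mean. Every member except Foxf1 had its cocultured libraries above its lone ones, although Foxl1 and Foxq1 rest on at most 14 counts per library.

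The remaining mesenchymal members were not called. Foxs1 had 550, 582 and 495 counts in lone and 636, 545 and 480 in cocultured libraries, and the groups overlapped (log2 fold change −0.04 with an SE of 0.103, adjusted p = 0.776 by edgeR). Foxl2, a factor of ovarian granulosa cells, had at most 2 counts in a library.

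**Figure D3:**
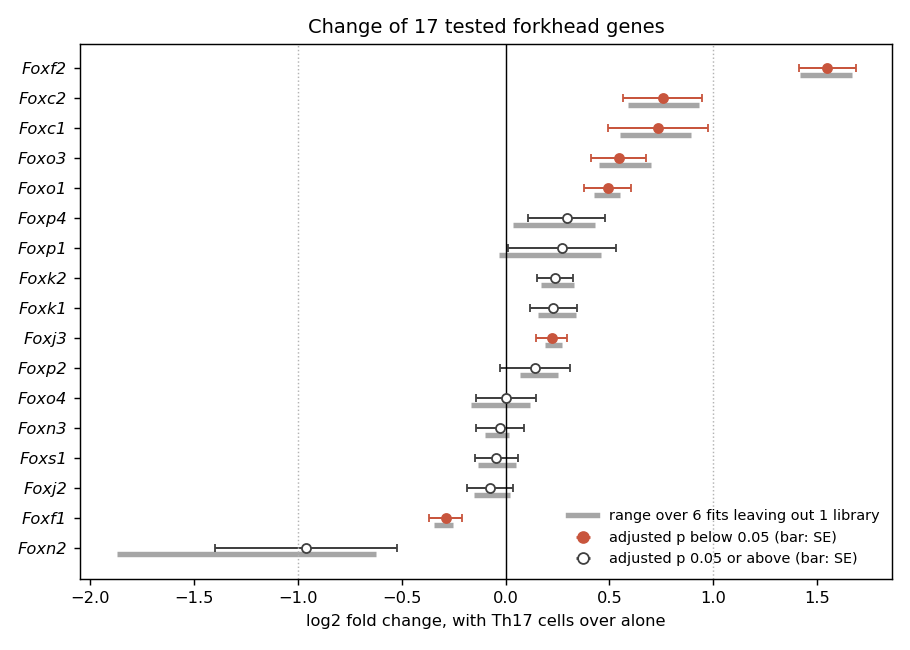
Log2 fold change (with Th17 cells over alone) of 17 tested forkhead genes, with the edgeR SE as a thin bar and the range over the 6 fits that each leave out 1 library as a grey bar. Filled points had an adjusted p below 0.05, and dotted lines mark a 2-fold change. Foxf2 stood apart at 1.55, and the widest grey bar, from −1.87 to −0.63, was that of Foxn2.

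Among the FoxO genes, Foxo3 and Foxo1 were up-regulated and Foxo4 was not called. Foxo3, the one with the highest mean FPKM (ENSMUSG00000048756, chromosome 10, 42181841 to 42276755, 4 exons), had 782, 880 and 796 counts in lone and 1409, 1381 and 986 counts in cocultured libraries. All cocultured libraries exceeded the lone ones, the third by the least. Foxo3 rose 1.46-fold, from a mean of 65.83 ± 4.59 to 96.07 ± 18.3 CPM (± SD over 3 libraries, log2 fold change 0.55 with an SE of 0.133, adjusted p = 0.0108 by edgeR). Foxo1, a mediator of insulin action on metabolism (ENSMUSG00000044167, chromosome 3, 52268336 to 52353221, 3 exons), had 146, 157 and 159 counts against 237, 213 and 235. It rose 1.41-fold, from a mean of 12.39 ± 1.06 to 17.41 ± 0.601 CPM (± SD over 3 libraries, log2 fold change 0.49 with an SE of 0.111, adjusted p = 0.0073 by edgeR). Both calls held under each alternative run, with adjusted p up to 0.0437 for Foxo3 and 0.036 for Foxo1. Foxo4, an X-linked member, had 276, 309 and 261 counts in lone and 372, 272 and 249 counts in cocultured libraries, and the groups overlapped (log2 fold change 0.002 with an SE of 0.144, adjusted p = 0.993 by edgeR). Foxo6 had at most 5 counts in a library.

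FoxO transcripts say nothing of FoxO protein in the nucleus, so genes that FoxO factors are known to induce were counted beside them. Of 26 such genes 24 were tested, and 7 were higher and 8 lower with Th17 cells, with a median log2 fold change of 0.009. Thus 29.2% were higher and 33.3% lower, where the shares over all genes were 17.1% and 20.0%. The transcripts that rose most were Cited2, which encodes a transcriptional co-regulator, and Irs2, an adaptor of the insulin receptor. Cited2 went from 1984, 2076 and 1859 counts to 5423, 5590 and 6369 (log2 fold change 1.48 with an SE of 0.076, adjusted p = 7.67e-07 by edgeR). Irs2 went from 173, 207 and 195 counts to 337, 338 and 373 (log2 fold change 0.79 with an SE of 0.114, adjusted p = 0.000601 by edgeR). Smaller increases were called for the insulin receptor gene Insr (log2 fold change 0.45), the mitochondrial superoxide dismutase Sod2 (0.45), Bcl6 (0.36), the catalase gene Cat (0.18) and Cdkn1a (0.16). The calls for Cat and Cdkn1a were lost in 5 of the 6 fits that left out a library, all but that without cocultured replicate 3. With all libraries kept, Cat was not called by DESeq2 (0.0625), without a filter (0.0703) or in the replicate block (0.069), nor Cdkn1a without a filter (0.0557) or in the block (0.0691).

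Among the 8 targets called lower, the largest declines were those of Tnfsf10, Txnip and Cdkn1b. Tnfsf10, the death ligand TRAIL, went from 134, 162 and 123 counts to 5, 1 and 8 (log2 fold change −4.94 with an SE of 0.346, adjusted p = 5.73e-06 by edgeR). Txnip, an inhibitor of thioredoxin and of glucose uptake, went from 3877, 4362 and 3399 counts to 2159, 1796 and 1620 (log2 fold change −1.14 with an SE of 0.106, adjusted p = 3.8e-05 by edgeR). Cdkn1b, the p27 inhibitor of cyclin-dependent kinases, went from 899, 787 and 816 counts to 455, 378 and 582 (log2 fold change −0.90 with an SE of 0.136, adjusted p = 0.000819 by edgeR). No library of one group reached the range of the other in any of these 3 genes. Lower values were also called for Bbc3 (log2 fold change −0.62), Bnip3 (−0.55), Klf2 (−0.51), Fbxo32 (−0.49) and Klf4 (−0.46). The call for Bbc3 was lost without lone replicate 2 (edgeR adjusted p = 0.0571), and that for Fbxo32 without lone replicate 1 (0.0862), lone replicate 3 (0.0911), cocultured replicate 1 (0.0691) or cocultured replicate 3 (0.0584). Fbxo32 also lost it with library size only (0.0505), by limma with either pseudocount (0.0636 and 0.0622) and in the replicate block (0.0524). Pdk4, a kinase that restrains pyruvate use, was not called (18, 31 and 17 counts against 30, 29 and 37; log2 fold change 0.47, edgeR adjusted p = 0.243).

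Upstream of the FoxO factors, 19 genes of insulin, PI3K, AKT and related signalling were tested, of which 7 were higher and 3 lower, with a median log2 fold change of 0.13. These are shares of 36.8% and 15.8%, beside 17.1% and 20.0% of all genes tested. Irs1, another insulin receptor adaptor, rose from 283, 292 and 264 counts to 469, 393 and 429 (log2 fold change 0.55, edgeR adjusted p = 0.00116). Pik3r1, the regulatory subunit of PI3K, rose from 694, 686 and 605 counts to 978, 893 and 1012 (log2 fold change 0.47, edgeR adjusted p = 0.000835). The others called higher were Sgk3 (log2 fold change 0.41), Stk4 (0.32), the receptor gene Igf1r (0.31), Pdpk1 (0.26) and Akt1 (0.16). The ligand gene Igf1 was lower, from 202, 156 and 186 counts to 49, 58 and 54 (log2 fold change −1.83, edgeR adjusted p = 2.59e-05), as was Ikbkb (−0.29, edgeR adjusted p = 0.0264). Of these 10 calls, 4 were lost when libraries were left out, those of Akt1, Ikbkb and Sgk3 in 5 of 6 such fits and that of Pdpk1 in 3 of 6 (without lone replicate 1 or 3 or cocultured replicate 1). Akt1 was kept only without cocultured replicate 3, Ikbkb only without cocultured replicate 3 and Sgk3 only without cocultured replicate 2, and the number called was 6 without lone replicate 1 and 6 without lone replicate 3. Over all 15 alternatives the call was lost in 8 for Akt1, 8 for Ikbkb, 7 for Sgk3 and 3 for Pdpk1. Sgk1, which phosphorylates FoxO factors as AKT does, had 845, 833 and 768 counts against 829, 1198 and 1514 (log2 fold change 0.46, edgeR adjusted p = 0.0794), and was called without cocultured replicate 1 (0.68, edgeR adjusted p = 0.00108) and in DESeq2 (adjusted p = 0.0251).

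Hedgehog pathway genes were counted because this pathway is known to act upstream of Foxf1, Foxf2 and Foxl1 in mesenchyme. Of 14 listed, 9 were tested, and 3 were higher (Boc, Ptch1 and Sufu) and 3 lower (Cdon, Gas1 and Gli3), with a median log2 fold change of 0.003. Each direction thus held 33.3% of the tested list, beside 17.1% higher and 20.0% lower over all genes. Ptch1, the Hedgehog receptor and itself a target of the pathway, went from 212, 186 and 236 counts to 401, 410 and 338 (log2 fold change 0.78 with an SE of 0.137, adjusted p = 0.00187 by edgeR). Gli1, the other classical target, had 1, 1 and 7 counts in lone and 5, 0 and 1 in cocultured libraries, and Hhip and the ligand gene Shh had 0 throughout. Among the co-receptors, Boc had a log2 fold change of 0.98 (edgeR adjusted p = 9.79e-06), whereas Cdon and Gas1 had −1.99 and −0.95 (edgeR adjusted p = 2.17e-06 and 2.18e-05). The call for Sufu (0.28, edgeR adjusted p = 0.0471) was lost without lone replicate 2 or 3 and without cocultured replicate 1 or 2, with adjusted p between 0.0782 and 0.148, in DESeq2 (0.0675) and without a filter (0.0587).

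**Figure D4:**
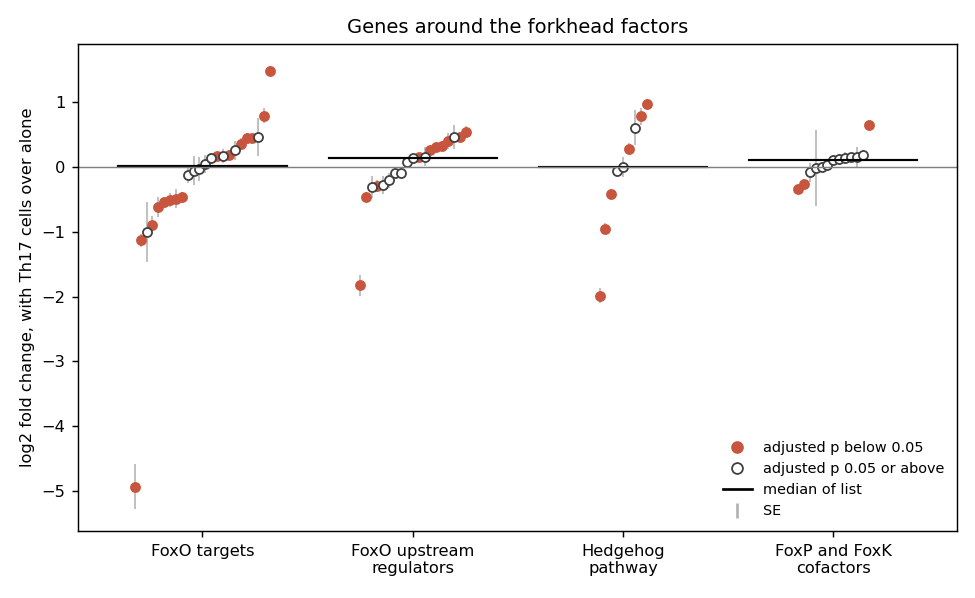
Log2 fold change (with Th17 cells over alone, with SE) of the tested genes of 4 lists around the forkhead factors, ordered within each list, with filled points for an adjusted p below 0.05 and a line at the median of the list. Members moved in both directions, and the medians lay between 0.003 and 0.13.

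Of the 6 broadly expressed FoxJ, FoxK and FoxN members, 1 was called (16.7%), beside 37.1% of all genes tested. Foxj3, a regulator of Mef2c in muscle (ENSMUSG00000032998, chromosome 4, 119537004 to 119629119, 13 exons), had 630, 588 and 571 counts in lone and 768, 742 and 686 counts in cocultured libraries. It was 1.17-fold higher without overlap between the groups (47.87 ± 1.27 against 55.85 ± 3.23 CPM, ± SD over 3 libraries, log2 fold change 0.22 with an SE of 0.075, adjusted p = 0.0445 by edgeR). The call was lost in 8 of 15 alternatives, among them DESeq2 (adjusted p = 0.0841) and each fit that left out a library other than cocultured replicate 3 (edgeR adjusted p between 0.0808 and 0.129). Foxj3 overlaps Frg2f1 on the opposite strand, which had at most 27 counts in a library.

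Foxk2 and Foxk1 were close behind. Foxk2, the broadly expressed member with the highest FPKM, had 1134, 1157 and 1069 counts against 1561, 1400 and 1218. Its groups did not overlap, yet the adjusted p was just above the limit (log2 fold change 0.24 with an SE of 0.087, adjusted p = 0.058 by edgeR). Without cocultured replicate 3 Foxk2 had a log2 fold change of 0.33 (edgeR adjusted p = 0.00337), and it was also called with library size only, with at least 1 CPM in 3 libraries and by limma on FPKM. Foxk1 had 689, 604 and 539 counts against 815, 803 and 637, with overlap (log2 fold change 0.23 with an SE of 0.112, adjusted p = 0.142 by edgeR), and was called without cocultured replicate 3 (0.34, edgeR adjusted p = 0.017). In both genes the third cocultured library was the lowest of its group.

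Foxn2, a broadly expressed factor of little-known function (ENSMUSG00000034998, chromosome 17, 88440711 to 88490533, 6 exons), was the least even member. Lone libraries held 603, 486 and 498 counts, and cocultured ones 171, 540 and 137. The second cocultured library lay inside the lone range and the other cocultured libraries far below it. The mean went from a mean of 42.43 ± 4.21 to 21.85 ± 17.8 CPM (± SD over 3 libraries) and was not called (log2 fold change −0.96 with an SE of 0.437, adjusted p = 0.118 by edgeR). Without cocultured replicate 2 the log2 fold change was −1.87 (edgeR adjusted p = 4.67e-05). A library that lay more than 2-fold from the next of its group was found in 96 of 9624 genes with a median of at least 100 counts in cocultured cells (0.998%) and in 91 of 9669 in lone cells (0.941%). Foxn3, with 203, 200 and 165 counts against 193, 178 and 215 (log2 fold change −0.03 with an SE of 0.115, adjusted p = 0.883 by edgeR), and Foxj2, with 369, 343 and 352 counts against 402, 355 and 307 (log2 fold change −0.08 with an SE of 0.109, adjusted p = 0.626 by edgeR), overlapped between the groups.

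No FoxP gene was called among the 3 tested, by edgeR, DESeq2 or limma on log2(FPKM + 1). By edgeR, 37.1% of all genes tested were called in either direction. None of the 3 had an unadjusted p below 0.05 by any of these tests. Foxp1, a repressor of wide expression, had 898, 2037 and 1876 counts in lone and 2299, 1957 and 1908 counts in cocultured libraries. Its first lone library lay more than 2-fold below every other library (log2 fold change 0.27 with an SE of 0.26, adjusted p = 0.451 by edgeR), and without it the log2 fold change was −0.03. Foxp4 had 691, 537 and 513 counts against 663, 967 and 603, with the second cocultured library alone above the lone range (log2 fold change 0.29 with an SE of 0.185, adjusted p = 0.247 by edgeR). Without that library the value was 0.04. Foxp2, known for its role in speech circuits, had 77, 63 and 55 counts against 73, 71 and 82 (log2 fold change 0.14 with an SE of 0.167, adjusted p = 0.542 by edgeR). Foxp3, which defines regulatory T cells, had 2 counts in the second cocultured library and 0 in the other libraries.

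The partners through which FoxP and FoxK factors act, corepressors and the deubiquitinase Bap1 among them, were all 13 tested. Hdac1 and Ctbp1 were lower, with log2 fold changes of −0.34 and −0.26 (edgeR adjusted p = 0.00458 and 0.0244), and Ctbp1 lost its call without lone replicate 1 (0.0528) or lone replicate 3 (0.0819), with library size only (0.061) and by limma on log2(FPKM + 0.1) (0.0847) or log2(FPKM + 1) (0.0866). That made 1 higher and 2 lower of 13, at 7.69% and 15.4%, where 17.1% and 20.0% of all genes were called, with a median log2 fold change of 0.11. Without cocultured replicate 3 the number called was 6. Gatad2b had 1054, 234 and 835 counts against 1018, 977 and 215, with 1 low library in each group.

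The other 24 members did not reach the filter. Counts were 0 in all 6 libraries for 11 of them, namely the endoderm factors Foxa1 and Foxa3 and Foxb1, Foxb2, Foxd4, Foxe3, Foxi1, Foxi2, Foxi3, Foxn4 and Foxr1, so each lay below the floor of 3 counts. Foxi1 is the defining factor of intercalated cells, and 3 of 4 intercalated markers were also at 0. Low counts were found for 13 members. Foxd3, a neural crest factor, had 5, 1 and 3 counts in lone and 0 in each cocultured library (edgeR adjusted p = 0.0666 in the fit without a filter). Foxd2, a factor of kidney mesenchyme among other tissues, had 2, 1 and 5 counts against 4, 10 and 6, with overlap. Foxe1, a thyroid factor, was at 0 in the lone libraries and had 4, 1 and 0 counts after coculture. Foxj1, which switches on genes of motile cilia, had at most 4 counts in a library, and 6 cilia genes summed to between 6.082 and 8.792 CPM in lone and between 8.012 and 9.665 CPM in cocultured libraries, with Dnah5 and Dnah11 at 0. Foxh1, which partners Smad proteins downstream of nodal, had at most 6 counts, Foxn1, the factor of thymic epithelium, at most 5, and Foxr2 at most 4. Foxa2 had 1 count in the third lone library.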

How the data were processed

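RNA-seq libraries of 3 lone and 3 cocultured fibroblast samples were used, grouped by their titles. Per the labels and the study's methods, reads were cleaned with Seqtk by the authors, mapped to mm10 using HISAT2 2.0.4 and counted using StringTie 1.3.3b. They deposited raw fragment counts and FPKM per gene. Whether counting used strand, and how fragments fitting several genes were assigned, was not stated, so overlapping genes are uncertain. Positions are those of the table. 34267 identifiers matched GENCODE M21 (GRCm38), 99.9% of them overlapping in position.

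The members and gene lists were chosen with earlier results of these data known. Counts were tested in R 4.3.3 with edgeR 4.0.16 (filterByExpr with a minimum count of 10, TMM, glmQLFit, glmQLFTest, Benjamini-Hochberg over 13088 genes). A change was called at an adjusted p below 0.05 and past the threshold with a fold change above 2. Common dispersion was estimated at 0.0136 (variation between libraries beyond counting error 11.6%). SE is the log2 fold change divided by the square root of F. CPM used TMM library sizes. All 34745 rows named a gene, and where a symbol had several rows the one with most counts was taken. No library was a copy of another (chi-square per gene at least 6.38 within groups, genes averaging 10 or more counts). Cocultured replicate 3 lay furthest from its group, at 15.2 and 14.02 from replicates 1 and 2, which were 8.5 apart. Without it 5088 of 13280 genes were called. The 15 alternatives were DESeq2 1.42.0, relative log expression, upper quartile or library size scaling, no filter, at least 1 CPM in 3 libraries, limma 3.58.1 on log2(FPKM + 1) and log2(FPKM + 0.1), a replicate block and leaving out each of the 6 libraries. On simulated counts for 13088 genes edgeR recovered 90% of 2-fold and 100% of 4-fold changes with 11 of 12888 unchanged genes called. DESeq2 recovered 84% and 98% with 12, and limma 85% and 100% with 16. Every simulated gene had the common dispersion, and 100 genes were changed at each fold, far fewer than were called in the data. Genes as uneven as Foxn2 were thus not represented, and these rates may be better than those of the real fits. Some genes of the family and of the lists enter the counts but are not reported here by name. Counts are given for each other called member and each with a mean of at least 100 counts, and list genes are named where called or where they define the pathway. Figures were drawn with matplotlib 3.10.9.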

Additional observations from a re-analysis of the deposited data

How the results depend on the processing

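Of 270 log2 fold changes of the 18 tested forkhead genes under the 15 alternatives, 244 stayed on their side of the limit, 7 passed it newly, 19 lost the call (Foxc1, Foxf1 and Foxj3) and 0 called values changed sign. The number called higher, 7 by edgeR with TMM, ranged from 5 to 8. Limma on log2(FPKM + 1) left 1 forkhead gene higher past the threshold, Foxf2, instead of 2. The number called lower, 1, was 0 with library size only and between 0 and 2 when a library was left out, and the number lower past the threshold was between 0 and 1 then. Leaving out a library gave between 6 and 9 calls among FoxO upstream regulators (10 with all libraries), between 2 and 6 among cofactors (3), between 12 and 14 among FoxO targets (15) and between 5 and 7 among Hedgehog genes (6). Of 585 values of the 39 other named genes, 517 kept their side, 65 lost the call (11 genes), 3 gained it and 0 called values changed sign. Deviations of same-numbered libraries correlated at 0.016, −0.026 and −0.004, which gave no sign of pairing by replicate number. These values cannot tell if such libraries shared an animal or culture, which was not stated. With the replicate block, 5 forkhead genes were higher and 1 lower, Foxc1 (log2 fold change 0.73, edgeR adjusted p = 0.0849) and Foxj3 (0.22, edgeR adjusted p = 0.08) lost their calls, and 4513 of 13088 genes were called instead of 4856. With library size only, 43.9% of all calls were lower, against 53.8% with TMM, and by limma 44.2% with a pseudocount of 1 and 44.4% with 0.1. Genes with fewer than 10 counts, 3 libraries per group and unstated use of strand set the limits here.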
